A study of Homo sapiens with 32 samples.

Results

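The miR-15/16 family was followed through 32 small RNA libraries of 293T cells, a human embryonic kidney line. Its members here were the rows mir-15a, mir-15b, mir-16, mir-195 and mir-497 of the count table, chosen by name. All 5 were present among 1513 miRNA rows. A row held the reads of a whole hairpin precursor, so both arms were counted together. The row mir-16 carried no locus number and may hold reads of MIR16-1 and MIR16-2, which give the same 5′ product.

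The libraries came from 8 cell clones. Wild-type clones 52, 55, 57 and 67 had genotype WT, and clones 30, 34, 42 and 43 had the DGCR8 delta103-126Q genotype, a prime-edited loss of the reported ERH binding site (called deletion clones below). Each clone was transiently transfected with control shRNA_1, control shRNA_2, shERH_1 or shERH_2, so there were 8 groups of 4 libraries. Controls and knockdown cells alike were selected with puromycin, sorted for a fluorescent marker on day 5 and lysed for total RNA, to which 4 spike-in RNAs were added. Each clone is a separate line, and its 4 libraries are not 4 independent clones. ERH mRNA was not measured in these libraries, so the depth of the knockdown was not analysed here.

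DGCR8 and the nuclease DROSHA form the Microprocessor, which releases hairpins from primary transcripts. ERH is a small nuclear protein that binds DGCR8 and has been reported to help poorly cut hairpins that sit beside a well cut neighbour. The miR-15/16 family is known for lowering cyclins, other cell cycle proteins and BCL2. The DLEU2 locus that carries mir-15a is often lost in chronic lymphocytic leukaemia.

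The members are shown as hairpins because the processing step under study acts on hairpins. The letters are from RefSeq (GRCh38.p14), written 5′ to 3′, with the 5′ mature product in capitals, and the genes are listed in the order of their transcripts. All 5 member rows were matched, through 6 hairpin genes.
MIR15A: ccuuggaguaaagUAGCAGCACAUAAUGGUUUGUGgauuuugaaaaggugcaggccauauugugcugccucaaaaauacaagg
MIR16-1: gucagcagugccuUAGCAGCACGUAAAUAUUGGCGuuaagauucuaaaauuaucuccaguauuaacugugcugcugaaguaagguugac
MIR15B: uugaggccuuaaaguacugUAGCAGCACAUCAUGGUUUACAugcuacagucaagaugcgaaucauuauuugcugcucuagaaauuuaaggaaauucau
MIR16-2: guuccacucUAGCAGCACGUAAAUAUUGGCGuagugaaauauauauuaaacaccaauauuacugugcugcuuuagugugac
MIR497: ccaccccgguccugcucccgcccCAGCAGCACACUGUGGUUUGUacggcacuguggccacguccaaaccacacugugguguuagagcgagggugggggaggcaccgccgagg
MIR195: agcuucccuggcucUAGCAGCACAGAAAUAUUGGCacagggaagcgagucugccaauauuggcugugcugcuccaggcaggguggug

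The 5′ products share a seed, bases 2 to 8, which is in capitals here and sets most target choice.
miR-15a-5p: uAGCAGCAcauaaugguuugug
miR-15b-5p: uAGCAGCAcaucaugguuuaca
miR-16-5p: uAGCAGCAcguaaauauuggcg
miR-195-5p: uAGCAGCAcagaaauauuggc
miR-497-5p: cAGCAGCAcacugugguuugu
Counted from the 5′ end, miR-16-5p and miR-195-5p differ at 2 of 21 positions compared, as G10A and U11G. The products miR-15a-5p and miR-15b-5p differ at 4 of 22 positions, as A12C, G20A, U21C and G22A. How the counting treated reads that fit 2 such neighbours is not given in the sources used here.

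The 5 rows come from 3 loci, each with 2 hairpins in 1 transcript. MIR15A (chr13:50049119-50049201, minus strand) lies 57 bases upstream of MIR16-1 (chr13:50048973-50049061), within DLEU2. In GENCODE release 29, 2 exons of DLEU2 overlap MIR15A among 8 of its transcripts there, and 0 overlap MIR16-1 among 6, so that MIR16-1 is intronic. MIR15B (chr3:160404588-160404685, plus strand) lies 59 bases upstream of MIR16-2 (chr3:160404745-160404825), and both are intronic in SMC4. MIR497 (chr17:7017911-7018022, minus strand) lies 209 bases upstream of MIR195 (chr17:7017615-7017701). Each of the 2 overlaps 1 exon among the 2 MIR497HG transcripts that cover it. The upstream hairpins are therefore MIR15A, MIR15B and MIR497.

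The libraries held 1318923 to 6222790 miRNA counts and 9139 to 33090 spike-in counts. Levels are given as CPM, the counts of a row per 1000000 scaled by TMM, which sets libraries level on the bulk of their miRNAs. For each clone the 2 control libraries were added up, as were the 2 ERH libraries, so that n is the number of clones. The family took between 14.3% and 21.6% of all miRNA counts in a library. The row mir-16 had the highest mean level of all rows, while mir-15b ranked 38, mir-15a 66, mir-195 138 and mir-497 151.

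In wild-type clones with control shRNAs the order of mean levels was mir-16, mir-15b, mir-15a, mir-195, mir-497. Each of the first 3 was above the next without overlap between clones. The pair mir-195 and mir-497, at 418 ± 102.9 and 358 ± 47.7 CPM (SD, n = 4), overlapped. Capture of different RNAs by ligation is uneven, so such an order compares reads rather than molecules. Within the family, mir-16 supplied 94.3% ± 0.69 of counts (SD, n = 4), mir-15b 4.01% ± 0.71, mir-15a 1.34% ± 0.42, mir-195 0.173% ± 0.035 and mir-497 0.150% ± 0.022.

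**Figure D1:**
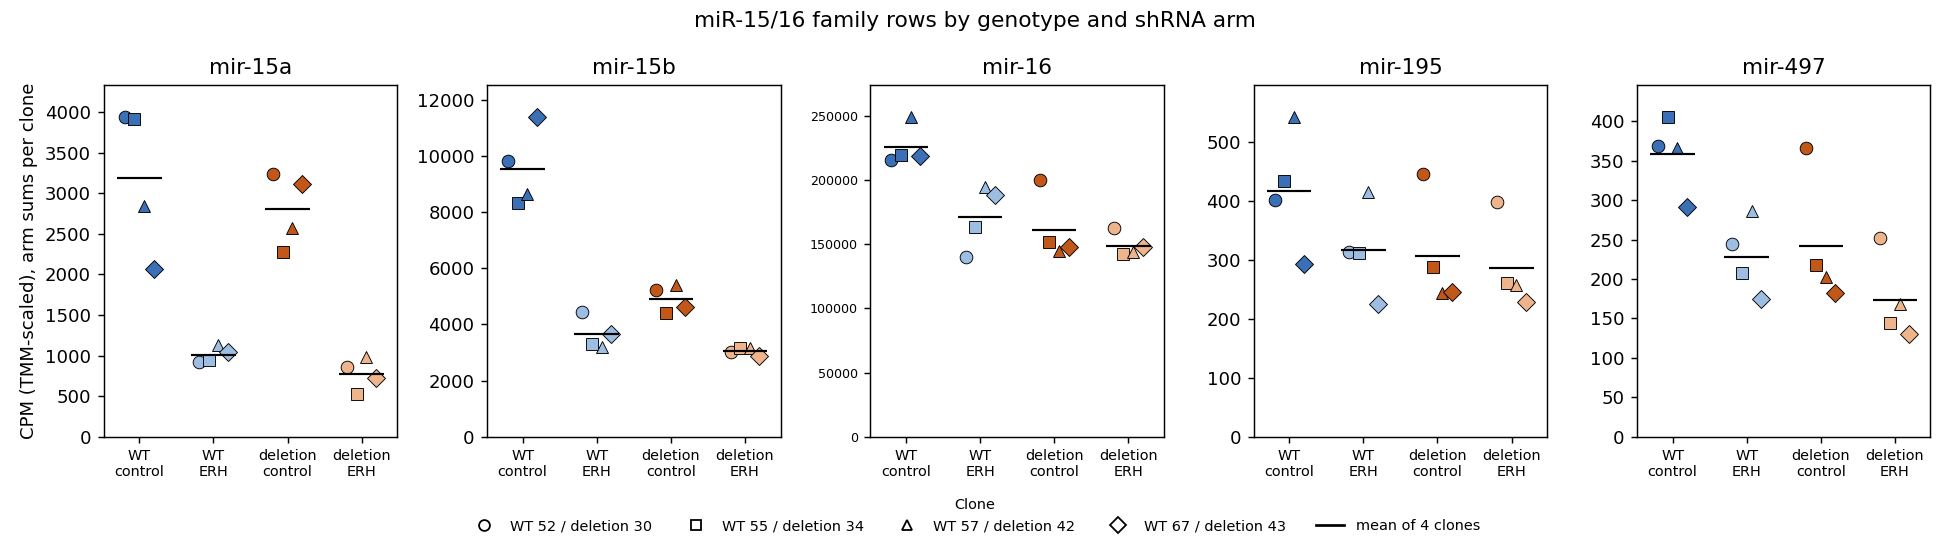
Level of each family row (CPM, TMM-scaled, linear axes from 0) in the 4 wild-type (WT) and 4 deletion clones, with the libraries of each arm summed per clone; marker shapes are clones and bars are means of 4. The mir-15a row is low in both ERH arms, whereas the mir-15b row is lower in every arm than in the wild-type controls.

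The mir-15a row fell in both genotypes when ERH was targeted. With control shRNAs the deletion clones lay within the range of the wild-type clones. In wild-type controls it stood at 3943, 3917, 2848 and 2066 CPM in clones 52, 55, 57 and 67. With ERH shRNAs the same clones had 921, 947, 1135 and 1048 CPM. The control values spread over a wide range while the ERH values lay close together, and the arms did not overlap. In deletion clones 30, 34, 42 and 43 it was at 3240.05, 2273, 2576 and 3116 CPM with control shRNAs. With ERH shRNAs these clones had 854, 525, 985 and 721 CPM. Every ERH value was again below every control value.

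By edgeR's quasi-likelihood test with Benjamini-Hochberg adjustment over all rows, the log2 fold change of mir-15a with knockdown was -1.57 ± 0.21 (SE) in wild-type clones, with an adjusted p of 2.04e-05. Under spike-in scaling it was -0.95 and no longer called, while the call over all clones was kept. In deletion clones it was -1.91 ± 0.14 (SE), with an adjusted p of 1.38e-05 by edgeR. The effect of the deletion was -0.19 ± 0.25 (SE, edgeR adjusted p = 0.609) with control shRNAs and -0.41 ± 0.22 (SE, edgeR adjusted p = 0.417) with ERH shRNAs. The knockdown change per clone ran from -0.98 in clone 67 to -2.11 in clone 34. The smallest changes among wild-type clones, in 67 and 57, belonged to the clones with the lowest control levels. The change is measured from the control level, so a low control level by itself makes for a smaller change.

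The mir-15b row fell with either change, and the wild-type controls stood above all other groups. In wild-type controls it had 9834.5, 8332, 8637 and 11398 CPM in clones 52, 55, 57 and 67. In deletion clones 30, 34, 42 and 43 with control shRNAs it had 5231, 4407, 5396 and 4636 CPM. The 2 sets did not overlap. With ERH shRNAs wild-type clones had 4441, 3297, 3202 and 3657.5 CPM, in clone order. Clone 52 among these lay above deletion clone 34 with control shRNAs, so these 2 groups overlapped. Deletion clones then had 3006, 3156, 3176 and 2882 CPM, the lowest of the 4 groups.

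The deletion changed mir-15b by -0.94 ± 0.17 (SE) on the log2 scale under control shRNAs, with an adjusted p of 0.00796 by edgeR. The call was lost under spike-in scaling, at -0.47. Knockdown changed it by -1.34 ± 0.16 (SE, edgeR adjusted p = 1.22e-05) in wild-type clones and by -0.71 ± 0.10 (SE, edgeR adjusted p = 0.00129) in deletion clones. Both calls were lost under spike-in scaling, at -0.73 and -0.42, while the call over all clones was kept. With ERH targeted, the deletion clones differed from wild type by -0.26 ± 0.16 (SE, edgeR adjusted p = 0.463), although the groups did not overlap. Such lower non-overlap was seen for 1.93% of the 569 rows tested.

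The mir-16 row, which had the highest mean level of all rows, had smaller fold changes with knockdown than its upstream neighbours mir-15a and mir-15b. Under the deletion with control shRNAs, on the TMM scale, its log2 fold change of -0.47 stood between -0.19 for mir-15a and -0.94 for mir-15b. It had 215895, 220018, 249489 and 219328 CPM in wild-type controls, in clone order, and 139821, 163347, 194728 and 188269 CPM with ERH shRNAs. Deletion clones had 200154, 151652, 145077 and 148310 CPM with control shRNAs and 162462, 142270, 143788 and 147929 CPM with ERH shRNAs. All 12 sums with a deletion, a knockdown or both were below all 4 wild-type controls. Among deletion clones the arms overlapped, and clone 30 was highest in each.

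The deletion effect on mir-16 with control shRNAs was -0.47 ± 0.13 on the log2 scale (SE, edgeR adjusted p = 0.0237). It was no longer called without clone 34, 42, 43, 57 or 67 (-0.46 to -0.35). Under total miRNA scaling it was -0.055, and under spike-in scaling 0.037. Over all clones knockdown gave -0.26 ± 0.088 (SE, edgeR adjusted p = 0.0276), lower in 8 of 8 clones. This call was lost without clone 30, 43, 52, 55 or 57 (-0.26 to -0.20). By genotype knockdown gave -0.36 ± 0.15 (SE, edgeR adjusted p = 0.0807) in wild-type and -0.13 ± 0.10 (SE, edgeR adjusted p = 0.394) in deletion clones. For the deletion under control shRNAs the other member rows also moved upward from TMM to total miRNA scaling. The row mir-15a moved from -0.19 to 0.23 and mir-15b from -0.94 to -0.53. The row mir-195 moved from -0.45 to -0.020 and mir-497 from -0.56 to -0.15. The shift was thus not particular to mir-16, and its cause was not tested.

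At the third locus the upstream row mir-497 fell with ERH knockdown, and the downstream row mir-195 passed the threshold in 0 of the 11 edgeR comparisons. DESeq2 called mir-195 lower with knockdown over all clones, with knockdown in wild-type clones and with deletion and knockdown together. The row mir-497 stood at 369, 405, 366 and 292 CPM in wild-type controls and at 244, 207, 286 and 175 CPM with ERH shRNAs, without overlap. In deletion clones it stood at 367, 218, 202 and 183 CPM with control shRNAs and at 252, 145, 168 and 129.9 CPM with ERH shRNAs, with overlap. Clone 30 was the highest deletion clone in both arms, and all 8 clones had less mir-497 with ERH shRNAs.

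The log2 fold change of mir-497 was -0.57 ± 0.12 (SE, edgeR adjusted p = 0.00105) over all clones. It was -0.62 ± 0.19 (SE, edgeR adjusted p = 0.0196) in wild-type and -0.50 ± 0.12 (SE, edgeR adjusted p = 0.0270) in deletion clones. The wild-type call was lost without clone 55 or 67 and the deletion-clone call without clone 30 or 43. Both were also lost with the other scalings. The wild-type value was then -0.0037 with spike-in and -0.28 with total miRNA scaling, and the deletion-clone value -0.21 and -0.31. The deletion gave -0.56 ± 0.26 (SE, edgeR adjusted p = 0.122) under control shRNAs and -0.41 ± 0.26 (SE, edgeR adjusted p = 0.465) under ERH shRNAs. Without clone 30 the deletion under control shRNAs gave -0.76 and passed the threshold (adjusted p = 0.0419 by edgeR).

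The row mir-195 stood at 401, 434, 543 and 293 CPM in wild-type controls and at 313, 312, 415 and 225 CPM with ERH shRNAs. Deletion clones had 446, 288, 244 and 245 CPM with control shRNAs and 398, 261, 258 and 229 CPM with ERH shRNAs. The ranges of the 4 groups overlapped throughout, and differences between clones of a genotype exceeded those between arms. Its log2 fold change with knockdown was -0.24 ± 0.12 (SE, edgeR adjusted p = 0.105) over all clones, with 7 of 8 clones lower. DESeq2 gave -0.30 (adjusted p = 0.0280).

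Over all 8 clones 4 of the 5 members were lower with knockdown at an adjusted p under 0.05 and 0 were higher, where 16.5% of 667 rows tested were lower and 20.1% higher. These shares rest on TMM, with 110 rows lower and 134 higher. Spike-in scaling gave 22 lower and 233 higher, total miRNA scaling 36 lower and 210 higher, and each called 2 members, mir-15a and mir-15b. The median over the members was -0.57, beside 0.061 over all rows tested. The 4 rows other than mir-195 were lower in 8 of 8 clones, which held for 9.6% of rows. In wild-type clones 3 of 5 were called lower (10.4% of 613 rows) and 4 of 5 did not overlap on the lower side (8.65%), and in deletion clones 3 of 5 were called lower (6% of 633 rows) and 2 of 5 did not overlap (3.16%). The 3 called were mir-15a, mir-15b and mir-497 in each genotype. Under the deletion with control shRNAs 2 of 5 were called lower (7.09% of 536 rows), and 2 did not overlap wild type on the lower side (10.3%), mir-15b and mir-16 in each count. Of all rows TMM called 38 lower and 101 higher in this comparison. Spike-in scaling called 0 lower and 134 higher and no member, and total miRNA scaling called 4 lower and 154 higher, with mir-15b the member among the lower. The comparisons of knockdown in wild-type clones and of the deletion share the wild-type control libraries.

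With ERH shRNAs in place, 0 of 5 members differed between deletion and wild-type clones, as did 0% of 569 rows (87 rows had an unadjusted p under 0.05 by edgeR, and DESeq2 called 11 rows, 0 of them members).

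Deletion and knockdown together were compared with neither change, that is, ERH arms of deletion clones against control arms of wild-type clones. Of the 5 members 4 were called lower, against 16.5% of 553 rows, and 4 did not overlap, against 14.8%. The log2 fold changes were -1.98 ± 0.28 (SE, edgeR adjusted p = 3.26e-04) for mir-15a, -1.55 ± 0.16 (adjusted p = 1.26e-04) for mir-15b, -0.51 ± 0.13 (adjusted p = 0.00537) for mir-16 and -0.96 ± 0.26 (adjusted p = 0.00888) for mir-497. The row mir-195 gave -0.46 ± 0.26 (SE, edgeR adjusted p = 0.163). With the other scalings the calls of mir-16 and mir-497 were lost. The value of mir-16 was 0.10 with spike-in and -0.0011 with total miRNA scaling, and that of mir-497 -0.37 and -0.46. Rows called lower numbered 91 with TMM, 20 with spike-in and 24 with total miRNA scaling, and rows called higher 168, 238 and 231. Set beside these, knockdown in wild-type clones alone had given -1.57 for mir-15a, -1.34 for mir-15b and -0.62 for mir-497, against the same wild-type control libraries.

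**Figure D2:**
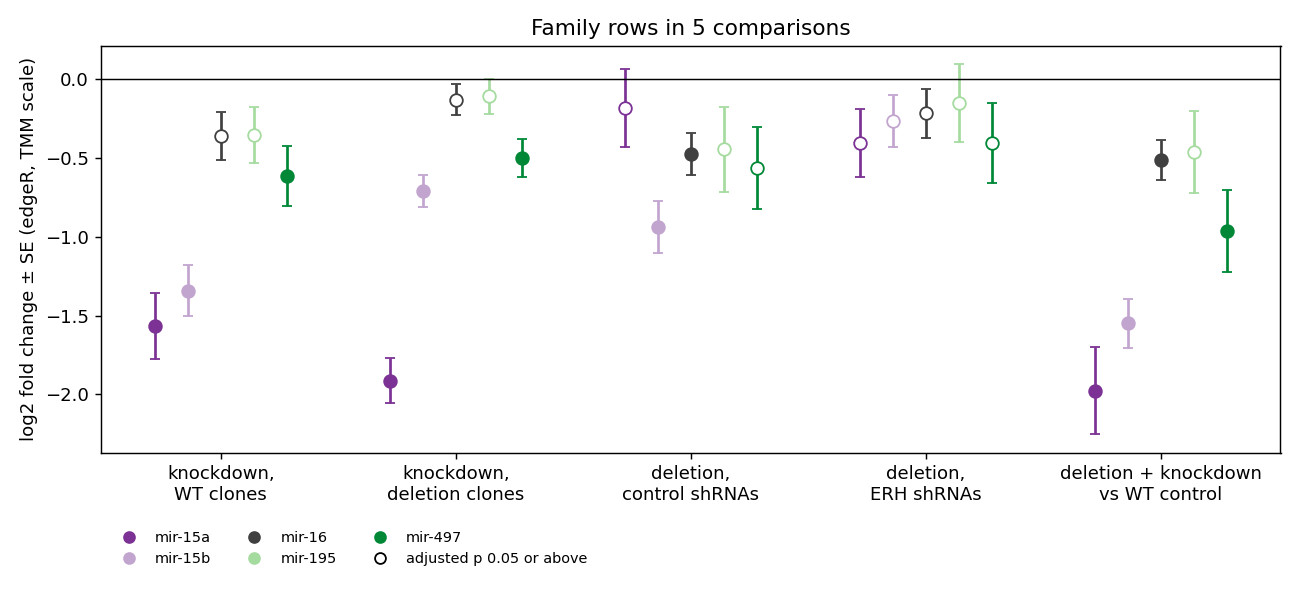
Log2 fold change (edgeR, TMM scale) of the 5 family rows in 5 comparisons, with error bars of 1 SE; filled points have an adjusted p under 0.05. For mir-15a the knockdown values are -1.57 and -1.91 and the deletion values -0.19 and -0.41, while mir-15b has -0.94 under the deletion with control shRNAs.

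Whether the knockdown change differed between genotypes was tested as an interaction, for which 0% of 667 rows passed (127 had an unadjusted p under 0.05 by edgeR, and DESeq2 called 19). The value for mir-15b was 0.71 ± 0.16 (SE, edgeR adjusted p = 0.0851), a smaller fall in deletion clones. Changes per clone were -1.15 to -1.64 in wild-type and -0.48 to -0.80 in deletion clones, without overlap. For this row DESeq2 gave an adjusted p of 0.00589, and edgeR gave 0.0190 without clone 52, while edgeR with spike-in scaling gave 0.31 with an adjusted p of 0.752. The value for mir-15a had the other sign, -0.27 ± 0.25 (SE, edgeR adjusted p = 0.624). Those of mir-16, mir-195 and mir-497 were 0.31, 0.32 and 0.19, with adjusted p from 0.247 to 0.668 by edgeR. A difference between genotypes was therefore not shown for any member in this fit.

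Ratios of 2 rows from the same sum of counts need no scaling, and they set the upstream row of each locus against its downstream neighbour. They were taken on an arm's 2 libraries summed per clone, so the deeper library weighed more. With knockdown the mean of each of these ratios fell, and none passed the threshold after adjustment over 15 ratio tests. The log2 ratio of mir-497 to mir-195 moved from -0.20 ± 0.25 to -0.46 ± 0.12 in wild-type clones. In deletion clones, also with SD over 4 clones, it moved from -0.35 ± 0.078 to -0.74 ± 0.12. It was lower in 7 of 8 clones, with a mean change of -0.33 ± 0.16 (SD, n = 8; two-sided exact test by sign flips, p = 0.0156, or 0.0781 adjusted over 15 ratio tests). The exception was clone 57, at 0.036, whose control ratio of -0.57 was the lowest of all clones. A low control ratio by itself makes for a smaller fall. Deletion clones were close to each other, between -0.45 and -0.34.

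For mir-15a to mir-16 the change ran from -2.11 to -0.76 and for mir-15b to mir-16 from -1.42 to -0.39, lower in 8 of 8 clones each. Both gave an exact permutation p of 0.00781, the smallest that 8 clones allow, and an adjusted p of 0.0586 over the 15 tests. The adjusted value thus missed the threshold with every clone on the same side. The denominator row mir-16 may collect reads from both loci, so neither ratio is that of a single transcript.

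The 2 upstream rows with closely related mature products, mir-15a and mir-15b, were set against each other as well. Under control shRNAs their log2 ratio was -1.62 ± 0.60 in the 4 wild-type clones and -0.82 ± 0.23 (SD) in the 4 deletion clones, without overlap. The difference of 0.80 had an exact permutation p of 0.0286, the smallest possible with 4 against 4 clones, and an adjusted p of 0.107. Knockdown moved the ratio in deletion clones by -1.20 ± 0.44 (SD, n = 4), with all 4 clones lower. In wild-type clones it moved by -0.22 ± 0.74 (SD, n = 4), lower in clones 52 and 55 and higher in clones 57 and 67. The difference of -0.98 between genotypes gave an exact permutation p of 0.0857 (adjusted p = 0.184).

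With both shRNAs summed, the downstream rows kept pace with each other. The log2 ratio of mir-195 to mir-16 changed by 0.014 ± 0.14 (SD, n = 8) with knockdown, between -0.16 and 0.27 (exact permutation p = 0.789, adjusted p = 0.910). With shERH_1 and control shRNA_1 alone the ratio changed by 0.12 ± 0.087 (SD, n = 8), lower in 1 of 8 clones (adjusted exact permutation p = 0.0536). With shERH_2 and control shRNA_2 alone it changed by -0.078 ± 0.34 (SD, n = 8), lower in 5 of 8. Under control shRNAs it was -9.11 ± 0.30 for wild type and -9.08 ± 0.20 for deletion (SD, 4 clones each). A p above the threshold does not show that the ratio was unchanged.

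Each ERH shRNA was also set against its own control library, so that these 2 comparisons share no library. With shERH_1 against control shRNA_1, 3 of 5 members were called lower (12.3% of 586 rows), at -1.90 ± 0.16 (SE) for mir-15a, -1.22 ± 0.13 for mir-15b and -0.58 ± 0.13 for mir-497. With shERH_2 against control shRNA_2, 2 of 5 were called lower (6.87% of 582 rows), at -1.59 ± 0.19 (SE) for mir-15a and -0.76 ± 0.17 for mir-15b. The row mir-497 then had -0.48 ± 0.18 (SE, edgeR adjusted p = 0.0570). With spike-in scaling the call of mir-15b in the shERH_2 set was lost, at -0.49, as was that of mir-497 in the shERH_1 set, at -0.050. The latter was also lost with total miRNA scaling, at -0.32. Per clone, mir-15a was lower in 8 of 8 in each set. The row mir-15b was lower in 8 and in 7 of 8, with clone 34 at 0.19 in the set of shERH_2.

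The 2 ERH shRNAs did not differ from each other for any member at an adjusted p under 0.05, with log2 differences from 0.0098 to 0.11, and 0% of 578 rows passed (37 at an unadjusted p under 0.05 by edgeR, and 1 called by DESeq2). Between the 2 control shRNAs 0% of 571 rows passed (48 at an unadjusted p under 0.05 by edgeR, and 1 called by DESeq2). The row mir-15b was nonetheless lower with control shRNA_2 in 8 of 8 clones, by between -0.77 and -0.0011. Its fitted value was -0.36 ± 0.11 (SE, edgeR adjusted p = 0.242). Per clone the mean mir-15b change was -1.23 in the first set and -0.80 in the second. The mean difference between the control shRNAs was -0.36 and that between the ERH shRNAs 0.069. By construction these 2 differences make up the gap between the sets, and that between controls was the larger. What set the controls apart was not tested.

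The scaling set the direction of the smaller changes. For the knockdown in all clones the median log2 fold change of all rows was 0.061 with TMM, 0.33 with total miRNA scaling and 0.52 with spike-in scaling. For the deletion under control shRNAs these medians were -0.033, 0.39 and 0.42. With spike-in scaling the knockdown gave -1.30 for mir-15a and -0.57 for mir-15b, which were called, and -0.11 for mir-497, which was not. The rows mir-16 and mir-195 then lay above 0 (0.21 and 0.22), as they did with total miRNA scaling (0.018 and 0.032). The deletion effect on mir-15a also changed sign, to 0.25 and 0.23.

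Other rows with the family's seed, or nearly so, were read from a list of 3, of which mir-424 and mir-503 passed the filter on low counts. The row mir-6838 had 4 counts in 1 clone and 0 in the rest.
miR-424-5p: cAGCAGCAauucauguuuugaa
miR-503-5p: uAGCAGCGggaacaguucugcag
These 2 hairpins share a transcript on the X chromosome. On the TMM scale, knockdown in all clones gave -0.39 ± 0.13 (SE, edgeR adjusted p = 0.0211) for mir-424. For mir-503 it gave 0.21 ± 0.11 (SE, edgeR adjusted p = 0.145). Other scalings are not given for these 2 rows. The row mir-424 was lower in 6 of 8 clones and higher in wild-type clones 57 (0.011) and 67 (0.27). By genotype it gave -0.34 in wild-type clones (edgeR adjusted p = 0.250) and -0.43 in deletion clones (edgeR adjusted p = 0.0445). With shERH_1 it gave -0.53 (edgeR adjusted p = 0.00968) and with shERH_2 -0.20 (edgeR adjusted p = 0.498). Under the deletion with control shRNAs 0 of these 2 passed, at -0.086 and -0.15.

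A further list held 4 rows whose hairpins do not need the Microprocessor, mir-1226, mir-877, mir-484 and mir-320a. With knockdown in all clones the list gave 0 calls, with a median of 0.17. With shERH_1 its median was 0.34, and mir-877 was called higher at 0.64 (edgeR adjusted p = 0.0474). With shERH_2 its median was 0.038, with 0 calls. Under the deletion with control shRNAs these 4 rows had a median of -0.43 and 0 calls, close to the members' median of -0.47. The row mir-451a, whose DROSHA cut has been reported to need its neighbour mir-144, gave -1.20 ± 0.29 (SE, edgeR adjusted p = 0.00258) with knockdown, and mir-144 gave -0.29 ± 0.30 (SE, edgeR adjusted p = 0.458). The row mir-451a was lower in 7 of 8 clones and higher in clone 43 (0.49). It passed the threshold in wild-type clones (-1.21, edgeR adjusted p = 0.0116) but not in deletion clones (-1.18, edgeR adjusted p = 0.115). With shERH_2 it passed (-1.32, edgeR adjusted p = 0.0123), and with shERH_1 it did not (-1.19, edgeR adjusted p = 0.0857). Both mir-451a and mir-144 are rare here, at 13.6 ± 4.79 and 6.56 ± 4.01 CPM (SD, n = 4) in wild-type controls. All values of these lists are on the TMM scale, and other scalings are not given for their rows. The lists were chosen with earlier results of these data known.

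Likeness of pattern was measured as Pearson's r of log2 CPM across the 32 libraries, which share clones, depth and scaling, against 365 other rows with a mean of at least 10 CPM. The row mir-15a was most like mir-19a (0.93), mir-29c (0.89) and mir-192 (0.83). The row mir-15b was most like mir-23b (0.88), mir-24 (0.87) and mir-130b (0.86), and mir-16 most like mir-454 (0.89), mir-126 (0.86) and mir-30e (0.85). The row mir-195 was most like mir-9 (0.83), mir-203a (0.82) and let-7c (0.79), and mir-497 most like mir-551b (0.93), mir-194 (0.83) and mir-30e (0.82). Within the family the closest rows were mir-195 and mir-497, at 0.85, and the least alike were mir-15b and mir-195, at 0.34. The rows mir-15a and mir-16 had 0.51, and mir-15b and mir-16 had 0.55.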

How the data were processed

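Small RNA was sequenced from 32 libraries with the QIAGEN QIAseq kit, per the labels' protocols. The deposited table gives raw read counts per miRNA precursor, per the file headers. SAMtools is named in the submitters' processing notes. The aligner, build, trimming and use of molecular identifiers are not given in the sources used here, and without identifiers amplification copies are among the counts. Columns without a sample numbered 0.

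Counts of an arm's 2 libraries were summed per clone. Tests used edgeR 4.0.16 in R 4.3.3 (filterByExpr, TMM, quasi-likelihood, Benjamini-Hochberg over all rows tested), with the clone as a block for knockdown. The SE is the absolute log2 fold change divided by the square root of F. Log2 CPM used a prior count of 2 and ratios a prior count of 0.5. Ratios were tested by exact permutation. The code was tested on simulated data. Alternatives were DESeq2 1.42.0, other scalings and filters, single shRNAs and left-out clones. Clones pair the arms by label, and the deviations of a clone's 2 arms from their group means correlated with r of 0.33 to 0.59 over 667 rows. Of 48 pairs of libraries within groups, 0 agreed within sampling noise (chi-square per degree of freedom at least 75.4). Hosts came from GENCODE release 29 and sequences from RefSeq, neither stated as the build behind the counts. The rule named the 5 members, 3 lists of other rows and the 3 rows most like each member. Members and lists were chosen with earlier results of these data known.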

Additional observations from a re-analysis of the deposited data

Results flagged for a closer look

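In 2 of 40 groups of 4 clones (levels of the 5 members and their ratios) a single clone stood apart by Dixon's criterion, whose 95% critical value for 4 samples is 0.829. Chance flags about 1 in 20 groups. Among deletion clones with control shRNAs, mir-16 was at 200154 CPM in clone 30, and the other clones lay between 145077 and 151652 CPM. Among wild-type clones with control shRNAs, mir-16 was at 249489 CPM in clone 57, and the others lay between 215895 and 220018 CPM. Without clone 30 the deletion effect on mir-16 was still called, and without clone 57 it was not. What set these clones apart was not tested.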

How the results depend on the processing

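Of 1148 values recomputed under alternatives, 979 kept their direction and side of the threshold or, as counts of members, changed by 1.5 times at most. A further 66 changed sign, 48 lost and 27 gained a call. The last 28 were counts that moved by over 1.5 times, or to or from none. The cause was not tested except where the setting itself uses fewer samples.

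With spike-in scaling the number of members called of 5 was 2 for knockdown in all clones, 0 in wild-type clones, 1 in deletion clones, 0 for the deletion under control shRNAs, 2 for deletion plus knockdown and 1 for shERH_2. Sign changed for mir-16 and mir-195 with knockdown in all clones (0.21 and 0.22), wild-type clones (0.25 and 0.26) and deletion clones (0.16 and 0.18), and for shERH_1 (0.29 and 0.41). It changed for the deletion under control shRNAs in mir-15a (0.25), mir-16 (0.037) and mir-195 (0.11), and for deletion plus knockdown in mir-16 (0.10) and mir-195 (0.16). It changed for the interaction in mir-16 (-0.094), mir-195 (-0.082) and mir-497 (-0.21), and for mir-16 with shERH_2 (0.088) and between controls (0.11). Between ERH shRNAs mir-15a, mir-15b, mir-16, mir-195 and mir-497 gave -0.061, -0.032, -0.10, -0.087 and -0.0074.

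With total miRNA scaling 2 members were called for knockdown in all clones, 1 for the deletion under control shRNAs and 2 for deletion plus knockdown. Sign changed for mir-16 and mir-195 with knockdown in all clones (0.018 and 0.032) and deletion clones (0.057 and 0.077), with the deletion under ERH shRNAs (0.017 and 0.062) and with shERH_1 (0.022 and 0.14). It changed for mir-15a under the deletion with control shRNAs (0.23), mir-497 in the interaction (-0.038), mir-195 in deletion plus knockdown (0.055), and mir-16 with shERH_2 (0.022) and between controls (0.013).

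Without the clone as a block for pairing, 2 members were called for knockdown in all clones, and mir-16 between controls was 0.0071. Tested without pairing, the ratio changes of -1.49 (mir-15a to mir-16), -0.78 (mir-15b to mir-16) and -0.33 (mir-497 to mir-195) passed the threshold, with adjusted exact permutation p of 0.00233, 0.00466 and 0.0225. Unpaired arrangements of 8 against 8 sums allow a smaller p than 8 sign flips do.

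With the second shRNA pair alone 2 members were called for knockdown in all clones and 1 in deletion clones. The interaction of mir-15a was 0.072, the mir-497 to mir-195 difference between genotypes 0.037, and the mir-195 to mir-16 knockdown change -0.078. With the first pair alone 1 member was called for the deletion under control shRNAs and 1 for the interaction. Its ratio changes of -1.66, -0.98 and -0.46, in the order above, passed the threshold (adjusted exact permutation p of 0.0391 each). The deletion gave 0.034 for mir-15a, the interaction -0.24 for mir-497, and the mir-195 to mir-16 ratio -0.027 (deletion) and -0.0057 (difference between genotypes). With DESeq2, 5 members were called for knockdown in wild-type clones and 1 for the interaction. With each library as its own sample, which treats 2 libraries of a clone as independent, 5 were called for knockdown in wild-type clones, 4 for the deletion under control shRNAs and 1 for the interaction. Without a filter 1 was called for that deletion and mir-497 between controls was -0.015. Kept to rows averaging 100 counts or more, the test called 1 member for that deletion and 1 for the interaction.

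Leaving out 1 clone at a time gave 1 to 3 members called for the deletion under control shRNAs (1 without clone 34, 42, 43, 57 or 67, and 3 without clone 30) and 0 to 1 for the interaction (1 without clone 52). The range was -0.42 to 0.025 for mir-195 under the deletion with ERH shRNAs and -0.028 to 0.22 for mir-497 in the interaction. Between ERH shRNAs it was -0.030 to 0.16 for mir-15a, -0.065 to 0.094 for mir-16 and -0.036 to 0.068 for mir-195. Between controls it was -0.081 to 0.020 for mir-16 and -0.046 to 0.095 for mir-497. For mir-195 to mir-16 it was -0.022 to 0.038 (knockdown), -0.11 to 0.13 (deletion) and -0.043 to 0.099 (difference between genotypes). Depth is lowest for mir-195 and mir-497.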

Other observations

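The hairpins of the 3 loci differ in base composition and predicted folding. Minimum free energies were computed with RNAfold from the RefSeq hairpins, whose ends differ in how much flank they include, so the values describe these sequences only. MIR497 and MIR195 hold 67.0% and 56.3% G and C, with energies of -49.2 and -53.2 kcal/mol per 100 bases. MIR15A, MIR16-1, MIR15B and MIR16-2 hold between 36.7% and 42.2%. Their energies are -36.7 for MIR15A, -41.6 for MIR16-1, -29.9 for MIR15B and -36.4 for MIR16-2. The median of 1562 hairpins is -45.2, with 52.1% G and C. In each locus the upstream hairpin has the less negative value, and the upstream row fell more under knockdown than the downstream row. The row mir-16 may hold reads of both MIR16-1 and MIR16-2, so the fall of either hairpin alone cannot be read. Across loci the order differed. MIR15B has a less negative value than MIR15A, but mir-15b fell less than mir-15a. Their log2 fold changes with knockdown in all clones were -1.04 and -1.75 (TMM scale). MIR16-2, at -36.4, is close to MIR15A, at -36.7. With 3 loci these values are a description, and a link between folding and the fall was not tested. In the structure predicted for MIR15A 57.8% of bases are paired, beside a median of 71.6%.

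The shared seed is rare among RefSeq mature miRNAs. It occurs in 7 of 2370 distinct mature names, the 5 products of this family, miR-424-5p and miR-6838-5p. Most of the family's counts were those of mir-16, and the family's share of all miRNA counts changed little. It was 18.7% ± 0.41 (SD, n = 4) in wild-type controls and 18.0% ± 1.201 with ERH shRNAs, and 17.9% ± 1.43 and 18.1% ± 0.88 in deletion clones. Within the family mir-15a went from 1.34% ± 0.42 to 0.576% ± 0.039 of counts with ERH shRNAs in wild-type clones and from 1.66% ± 0.24 to 0.502% ± 0.13 in deletion clones (SD, n = 4).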
